A study of Mus musculus with 12 samples.

Results

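This section describes the resting transcriptome of haematopoietic stem cells in sham-operated mice, as 3 of the 12 microarrays of the study measured it. The members were the 3 arrays whose labels give the treatment as sham-op. Each array held the total RNA of LSK SLAM cells from the bone marrow of 1 male mouse, and no member was left out. The other 9 arrays came from mice given G-CSF for 2 or 5 days or the CXCR4 antagonist POL5551 for 14 days, and they were not used. In every mouse the marrow was first enriched for Kit-positive (CD117) progenitors, and LSK SLAM cells were then sorted by flow cytometry from that fraction. No source used here states the strain or age of the mice, or the gates beyond the name LSK SLAM.

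LSK SLAM cells lack lineage markers, carry Sca-1 (encoded by Ly6a) and KIT, carry the SLAM receptor CD150 (Slamf1) and lack CD48. This combination is known to enrich for long-term repopulating stem cells, most of which rest outside the cell cycle in the adult marrow. Their identity is held by a small circuit of transcription factors, among them GATA2, RUNX1, TAL1, LMO2, MEIS1 and HLF. Their place in the marrow depends on receptors such as KIT and CXCR4, whose ligands are made by niche cells.

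Each probe's level is given as log2 of its processed Cy5 signal minus log2 of the 75th percentile of the same array, so that 0 marks the 75th percentile. A gene was represented by its brightest probe, and its percentile is its rank among the 36995 genes of an array, with 100 as the brightest. Of these genes, 24891 carry a RefSeq symbol. Values with ± are the mean and SD over the 3 mice. Probes differ in how brightly they bind at 1 amount of RNA, so a rank is an order of brightness between probes and not of transcript copies. With 3 mice and no contrast there was no test, and precision is limited by that number. Genes named beyond the rule given with the processing were picked after their values were seen.

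A gene was called well above background on all 3 arrays where the scanner software set that flag for its brightest probe on each of them. The flag was set for 27723 of 36995 genes, which is 74.9% (77.1% of the genes with a symbol), and 3759 genes, 10.2% (8.64% of those with a symbol), had no probe well above background on any array. The flag alone is a low bar. Olfactory, vomeronasal and taste receptor genes and keratin-associated protein genes, which serve sensory cells and hair, passed it on all 3 arrays in 796 of 1455 cases (54.7%). Their median percentile was 30.4, and 95 in 100 of them lay below a mean percentile of 77.2. That value is used below as the off-tissue mark. It was set after the values were seen, and 5480 of the 24891 genes with a symbol (22.0%) lay above it.

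The array of sham mouse 1 stood apart from the others. It was hybridised on another slide, while shams 2 and 3 shared a slide. Over all probes the rank correlation was 0.934 between shams 2 and 3, but 0.814 and 0.81 between sham 1 and each of them. The 75th percentile of the signal was 1901 on sham 1, 3416 on sham 2 and 3828 on sham 3. The off-tissue genes were brighter on sham 1, where their median percentile was 40.1 against 26.8 and 25.6, and 1030 of the 1455 ranked highest there. The point below which 95 in 100 of them fell was the 88.6th percentile on sham 1, the 73.8th on sham 2 and the 73.0th on sham 3. Slide and mouse cannot be told apart here, and values without sham 1 are given for some lists only. Without sham 1 the off-tissue mark was 72.8, and 7391 of the 24891 genes with a symbol lay above it. Lists moved as well. Above the mark were then 15 of 26 ETS genes in place of 7, and 18 of 23 stem cell surface genes in place of 14. The median of the interferon regulatory factor genes moved from 80.2 to 88.6.

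The brightest probes of the array were not those of stem cell genes. Most of them hold letters that also occur in other genes, or simple repeats, and 6 examples picked from the first 36 ranks are shown. The first 3 below belong to predicted genes with no RefSeq symbol, on mouse chromosomes 2 and 9, at places known for major satellite repeats. The next pair carry simple repeats, and the last, which has no such stretch, lies in the mitochondrial ribosomal RNA region. Capitals mark the longest stretch that a satellite probe shares with another of the 3, or the tandem run.
Gm10801: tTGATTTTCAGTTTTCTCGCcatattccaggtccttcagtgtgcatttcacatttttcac
Gm10717: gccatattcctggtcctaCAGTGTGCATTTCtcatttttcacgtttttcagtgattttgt
Gm10720: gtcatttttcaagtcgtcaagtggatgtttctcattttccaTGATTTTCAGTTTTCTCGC
EST AA672647: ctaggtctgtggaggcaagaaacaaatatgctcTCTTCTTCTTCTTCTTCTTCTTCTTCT
A530030E21Rik: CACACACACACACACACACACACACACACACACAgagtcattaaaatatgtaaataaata
AK140265: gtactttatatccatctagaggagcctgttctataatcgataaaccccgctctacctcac

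On mm9, the build of the array design, the first 3 probes are placed at chr2:98502597-98502655, chr9:3030720-3030779 and chr9:3017151-3017210. The A530030E21Rik probe lies at chr16:19244060-19244119 and the AK140265 probe at chrM:598-657, while the EST AA672647 is placed on chromosome 12. The probe of Gm10801 was the brightest of all 56605, with levels of 8.61, 7.57 and 7.73 on shams 1, 2 and 3. The probes of Gm10717 and Gm10720 ranked 4 and 5, at 8.41, 7.25 and 7.4 and at 8.33, 7.25 and 7.1. AA672647 ranked 6 (8.36, 7.17 and 7.14), the mitochondrial AK140265 ranked 11 (7.95, 7.02 and 7.32), and A530030E21Rik ranked 36 (7.96, 6.52 and 7.11). In every one of these probes sham 1 held the highest level. A level is relative to the 75th percentile of its array, which was lowest on sham 1. The highest unscaled signal of any spot was 740365 on sham 1, 647646 on sham 2 and 811408 on sham 3.

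A search across all probes showed how far this went. A probe was called repeat-like where it held a tandem run of at least 16 bases, or 16 bases in a row that also occur in probes or promoters of 3 or more other genes. By this rule 2871 of 56605 probes (5.07%) were repeat-like, but 84 of the 100 brightest probes and 90 of the next 100 were. The share was 33.4% at ranks 501 to 1000 and 2.5% beyond rank 20000. The 42 probes with a CA run reading CA had median levels of 7.65, 6.43 and 6.78, and the 71 reading TG had 7.55, 6.51 and 6.42. All of them were well above background on all 3 arrays, on both strands.

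**Figure D1:**
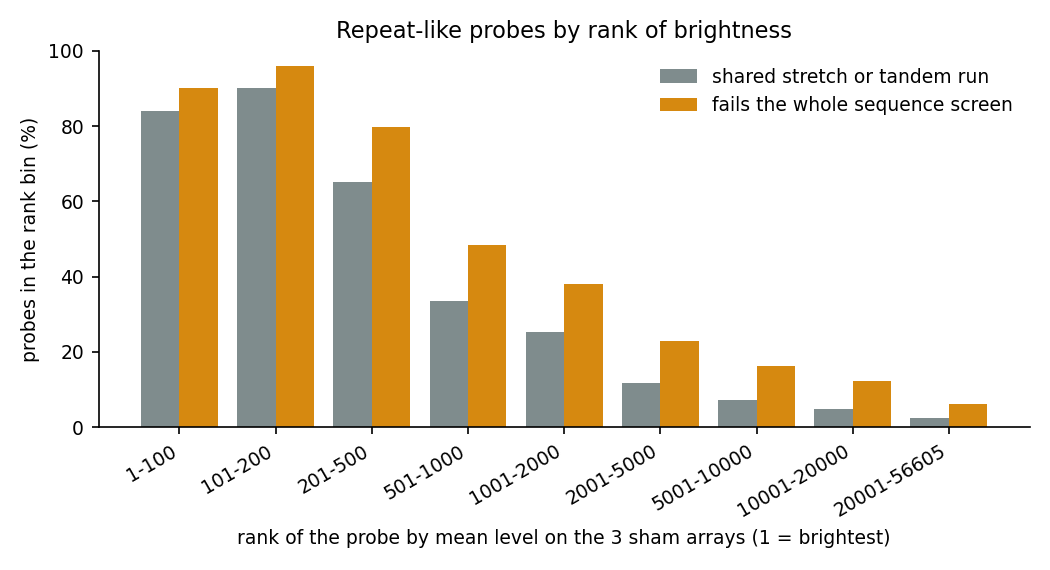
Percent of probes (y axis) that held a shared stretch or tandem run (grey), or failed the whole sequence screen (orange), in bins of the probe's rank by mean level on the 3 sham arrays (x axis). The repeat-like share stands at 84.0% among the 100 brightest probes and at 2.5% beyond rank 20000.

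Short sequence words moved with brightness as well. Among 3969 words of 6 bases found in at least 100 probes, CACACC had the highest median level on each of the 3 arrays, 0.73, -0.2 and 0.16, where all probes had -1.72, -2.07 and -2.1. ACACAC was next by the mean of the 3 medians, and TAATAT was the lowest. The 683 probes that hold CACACC but no repeat still had medians of 0.6, -0.34 and 0.02. Has2, Septin12 and Park7 are shown as examples picked after their values were seen, each with 30 bases of its probe and CACACC in capitals. They encode a hyaluronan synthase, a sperm septin and a redox-sensitive chaperone.
Has2: gtgggaaacaaaCACACCctgacaataaat
Septin12: ccaaCACACCctagagcatctatgtgaacc
Park7: gcaaggtcacaaCACACCcactggctaagg

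The Has2 probe (chr15:56497356-56497415, mm9) had levels of 7.89, 6.3 and 6.78, the Septin12 probe (chr16:4987436-4987495) 7.86, 6.19 and 6.77, and the Park7 probe (chr4:150275119-150275178) 7.08, 4.65 and 6.34. Each of them had its highest level on sham 1 and its lowest on sham 2. Base composition moved with brightness too. Among probes without repeats, the Spearman correlation of level with GC content, over probes that share a library, was 0.458, 0.412 and 0.421 on shams 1, 2 and 3. The 14880 probes of 32 to under 37% GC had median levels of -3.38, -3.88 and -3.89, with 44.4% well above background on all 3 arrays. The 944 probes of at least 57% GC had -0.03, -0.24 and -0.23, with 95.3%. What part sequence has in the level of any single gene was not tested.

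**Figure D2:**
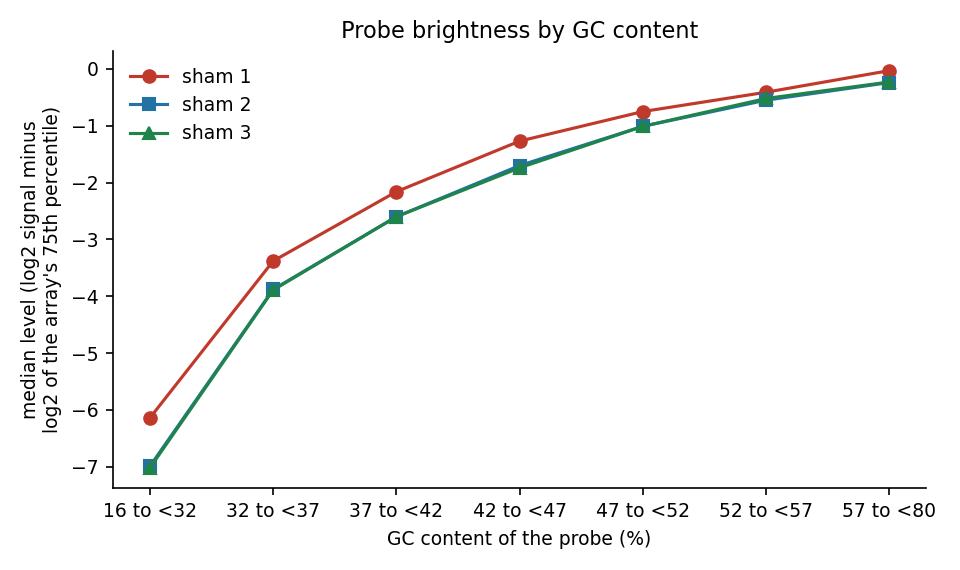
Median level of probes without repeats (y axis, log2 signal minus log2 of the array's 75th percentile) in bins of probe GC content (x axis, percent), with 1 line per sham mouse. The median climbs with GC content on every array, from -6.14, -6.99 and -7.02 in the lowest bin to -0.03, -0.24 and -0.23 in the highest.

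Genes ranked by their brightest probe were therefore also ranked after a sequence screen, chosen once these values were known. It left out repeat-like probes, probes with ACACAC or CACACC on either strand and probes that the array design places on another chromosome than their gene. The screen removed 6040 probes (10.67%) and kept a probe for 34008 genes. Of the 23393 with a symbol among them, 17507 (74.8%) were well above background on all 3 arrays. Without it, the 25 brightest genes with a symbol ran from Ulk3, a kinase of autophagy, Rn4.5s, the gene of the small 4.5S RNA, and Dennd4a to Tacr2 and Gm13562, and 24 of the 25 rested on a probe that failed the screen. Ulk3 had levels of 8.55, 7.52 and 7.62, from a probe placed on chromosome 15, and its screened probe had a mean percentile of 69.1 ± 5.2. Ubtf, a ribosomal RNA transcription factor, moved from 100.0 ± 0.0 to 46.0 ± 13.0, and Timmdc1, an assembly factor of respiratory complex I, from 99.9 ± 0.0 to 12.3 ± 1.2, on a probe not well above background on any array. Ifnar1, the type I interferon receptor chain, was the 1 gene of the 25 whose probe passed, at 7.99, 6.77 and 6.96. The satellite probes passed the screen because few other genes share their letters, but they carry no symbol.

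After the screen, genes of the protein synthesis machinery were numerous among the brightest named transcripts of the sham mice, although none of them was the first. Of the 100 brightest genes with a symbol, 22 encode cytosolic ribosomal proteins and 9 histones, and 4 belong to the 16 reference genes. Rps25 had levels of 5.84, 5.87 and 5.53, and Rpl28 5.69, 5.68 and 5.69. Both encode ribosomal proteins, and the 3 mice lay close together in each. Eef1a1, the elongation factor that brings transfer RNA to the ribosome, had 4.95, 5.62 and 5.78. Ubb, a polyubiquitin gene, had 4.76, 5.6 and 5.82, and Rack1, a scaffold protein of the small ribosomal subunit, 4.95, 5.57 and 5.56. For Eef1a1, Ubb and Rack1 sham 1 was the lowest of the 3 mice. Ribosomal protein genes have many processed copies, and which copy a probe binds cannot be told from these data.

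Over all 85 cytosolic ribosomal protein genes measured, 82 were well above background on all 3 arrays (against 77.1% of the genes with a symbol), their median percentile was 97.2, and 80 lay above the off-tissue mark. Of 81 nuclear genes of the respiratory chain, 78 passed on all 3 arrays with a median percentile of 88.4. On sham 1 this median was 83.4, against 91.2 on sham 2. Of 55 histone genes, 46 passed, with a median of 85.2 and a range from 0.2 to 99.4. The brightest probe of 18 histone genes failed the screen. With the screen, 32 of 41 histone genes passed (78.0% against 74.8%), with a median of 84.7. These 3 lists were formed by symbol after the values were seen. Other genes near the top after the screen were outside these groups, such as Irak2 (7.42, 6.46 and 6.69), a kinase of Toll-like receptor signalling, Fstl1 (6.99, 5.72 and 5.6), a secreted glycoprotein, and Prm3 (6.46, 5.7 and 6.04), a protamine gene of sperm. In all 3 the level on sham 1 was the highest.

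The genes of the sort itself were not among the brightest. Of the 3 that the gate keeps, 2 were well above background on all 3 arrays and Slamf1 on 2. Kit, the stem cell factor receptor, had levels of 2.67, 2.94 and 2.75 and a percentile of 94.1 ± 0.6, nearly the same in every mouse. That probe and another of its 3 probes failed the screen, and the remaining one gave -1.41, -0.34 and -0.79 and a percentile of 62.9 ± 11.6. Ly6a, which encodes Sca-1, had -2.05, 0.64 and 0.5, low on sham 1 and well apart from shams 2 and 3, and its percentiles were 35.2, 79.7 and 78.0. Its only probe, like the brightest of Kit, failed the screen through 1 short word. Slamf1, which encodes CD150, had -4.33, -1.24 and -1.68 and was well above background on shams 2 and 3 only, at percentiles of 14.5, 56.0 and 50.1. Procr, the endothelial protein C receptor and a surface marker of the most potent stem cells, had -0.3, 1.36 and 1.36, a percentile of 79.2 ± 11.7, with sham 1 again the lowest. Since the sort rests on Kit and Ly6a, 30 bases of each of those probes are shown, from the Kit probe at chr5:76052394-76052453 and the Ly6a probe at chr15:74825553-74825612 (mm9), with the word in capitals.
Kit: tacttaaggggcCACACCattgagaatttt
Ly6a: aaggtgggagtaGTGTGTgaaataccatgt

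Markers that the gate excludes or that mark later progenitors spread around the middle of the array. Of the 15 measured, 12 were well above background on all 3 arrays, with a median percentile of 53.2 beside 52.9 for all genes with a symbol, and 4 lay above the off-tissue mark (26.7% against 22.0% of all genes with a symbol). Cd48, absent from the surface of sorted cells by design, had -0.71, -1.98 and -1.27, so that sham 1 was the highest and sham 2 the lowest. Its percentile of 53.2 ± 7.0 was above that of Slamf1 on sham 1 and sham 3 but not on sham 2, and the levels of different probes give no ratio between the genes. Flt3, the receptor of multipotent progenitors, had -1.11, -2.05 and -1.66. Itgam, which encodes the myeloid marker CD11b, ranked at 99.8 ± 0.1, but on a probe that is a run of CA repeats, and its screened probe ranked at 77.2 ± 9.8. Cd4, a T cell co-receptor, likewise moved from 92.8 ± 4.0 to 81.6 ± 3.3. The letters of the Itgam probe (chr7:135261755-135261814, mm9) and of the only Csf3r probe (chr4:125721478-125721537) are shown, 30 bases each, with the 16 bases that occur in most promoters of the RefSeq table in capitals.
Itgam: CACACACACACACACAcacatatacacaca
Csf3r: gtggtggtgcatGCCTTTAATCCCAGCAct

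The capitals of the Itgam probe occur in 148 promoters, and those of the Csf3r probe, the letters of the B1 short interspersed element, in 7. Csf3r, the G-CSF receptor, thus had levels of 6.65, 5.61 and 5.24 and a percentile of 99.0 ± 0.3 that cannot be told apart from those of B1 sequence in other transcripts, and no screened probe was left for it.

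**Figure D3:**
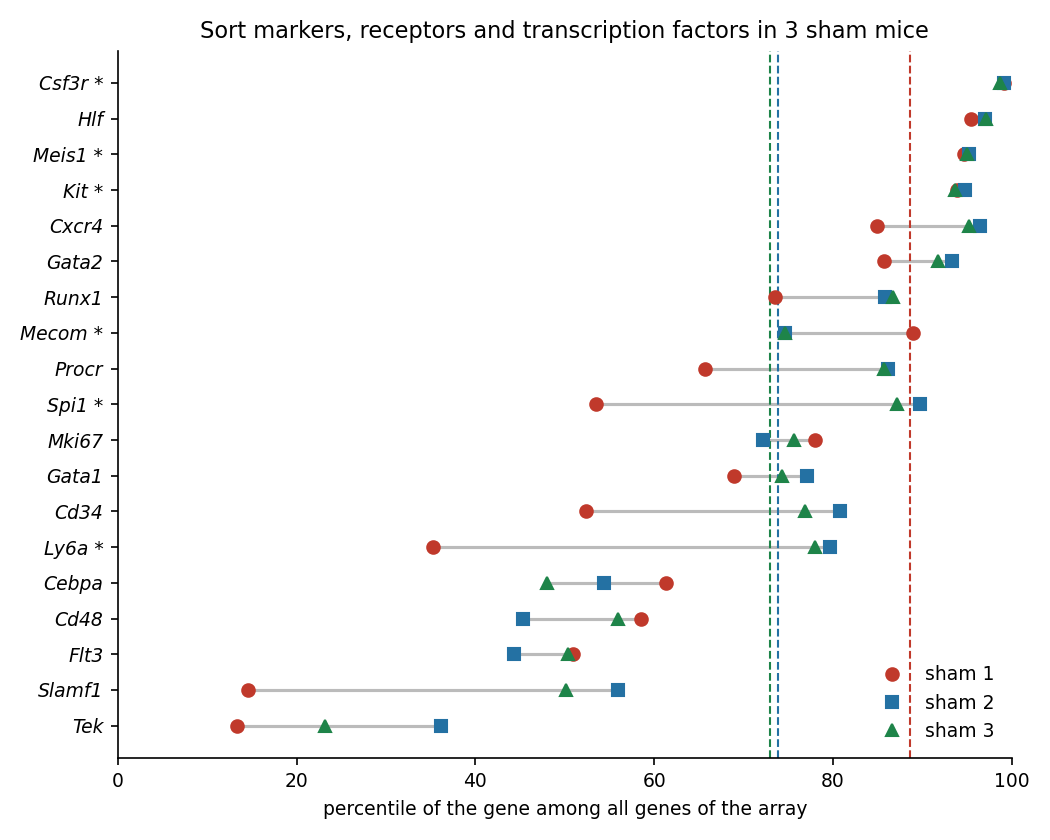
Percentile of 19 fixed genes among all genes of the same array (x axis), with 1 symbol per sham mouse and a grey line over their range. Dashed lines in the same colours mark the percentile below which 95 in 100 off-tissue genes lay on each array (88.6, 73.8 and 73.0), and an asterisk marks a probe that failed the screen. Sham 1 lies lowest for Ly6a, Slamf1, Procr and Spi1, and Csf3r, Hlf, Meis1, Kit and, by little, Mecom lie above the line of their array in every mouse.

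Surface genes known from stem cells ranked high as a group. Of 23 measured, 22 were well above background on all 3 arrays, with a median percentile of 79.6 against 52.9 for all genes with a symbol, and 14 lay above the off-tissue mark, 60.9% against 22.0%. The median was 67.7 on sham 1 and 85.3 on sham 2, and 21 of the 23 ranked lowest on sham 1. Ly6e, a GPI-anchored relative of Sca-1, had 2.49, 4.9 and 4.61 and a percentile of 96.6 ± 3.0. Cd47, the signal that keeps macrophages from engulfing a cell, ranked at 93.4 ± 3.8, Cd93, a C-type lectin-like receptor, at 93.0 ± 3.9, and the adhesion receptor Adgrg1 at 92.0 ± 3.4. Tek, which encodes the angiopoietin receptor TIE2, was the lowest of the group at 24.2 ± 11.5 and was not well above background on sham 1. Cd34, whose product is low on the most primitive adult mouse stem cells, ranked at 70.0 ± 15.4. Esam, an endothelial-type adhesion molecule of stem cells, ranked at 83.2 ± 2.8 and differed little between mice.

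Transcription factors of stem cell identity also ranked high. Of 30 measured, 28 were well above background on all 3 arrays (93.3% against 77.1% of all genes with a symbol). The median percentile was 80.7, and 17 lay above the off-tissue mark (56.7% against 22.0%). Without sham 1, 21 lay above the mark of 72.8 over shams 2 and 3, beside 7391 of the 24891 genes with a symbol. On sham 1 the median was 76.7, below that array's own mark of 88.6. On shams 2 and 3 it was 84.3 and 84.2, above their marks of 73.8 and 73.0. With the screen, 13 of the 26 with a probe left lay above the screened mark of 79.6, against 19.3% of genes with a symbol. Lmo2, the bridging protein of the GATA and TAL1 complex, ranked at 97.5 ± 0.2, with levels of 4.52, 4.08 and 3.99 that hardly differed between mice. Hlf, a factor closely restricted to stem cells, ranked at 96.5 ± 0.9 with 3.21, 3.74 and 3.94. Tal1, the basic helix-loop-helix partner of that complex, ranked at 96.0 ± 1.0 on a probe that failed the screen, and Msi2, an RNA-binding protein kept in this list, at 95.2 ± 0.6. Meis1, a HOX cofactor, ranked at 95.0 ± 0.2, and its screened probe, at 0.58, 3.12 and 3.12, was lower on sham 1 only.

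Gata2, a zinc finger factor that stem cells need to persist, had 1.24, 2.55 and 2.32 and a percentile of 90.2 ± 4.0, with sham 1 the lowest. Runx1, which opens the blood programme in the embryo, had 0.17, 1.3 and 1.5 (82.0 ± 7.4). Mecom, which encodes EVI1, could not be ranked firmly. Its brightest probe, which failed the screen, gave 1.65, 0.16 and 0.17, and another of its 5 probes gave -5.89, 0.4 and -0.06. Tcf15 and Sox17, a factor of deep quiescence and one of fetal stem cells, were the lowest 2 of the group by percentile, at 35.1 ± 28.5 and 32.1 ± 16.0, and Tcf15 was not well above background on sham 1. Over genes with more than 1 probe and a symbol, the mean level of a gene's probes spanned a median of 2.92 log2 units, so that the choice of probe weighs on any rank.

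Factors of single lineages were lower than those of stem cells by their median percentile, 70.3 over 20 genes, and 19 of them were well above background on all 3 arrays. Of the 20, 5 were above the off-tissue mark, a share near the 22.0% of all genes with a symbol. Without sham 1, 8 of the 20 were above the mark of 72.8, beside 7391 of the 24891 genes with a symbol. With the screen, 6 of 19 (31.6%) lay above the screened mark, against 19.3%. In both of these settings the share was thus higher than that of all genes with a symbol. Zfpm1 (FOG1), the partner of GATA1, led at 92.8 ± 2.0, followed by Bcl11a, a factor of stem and B cells, at 89.5 ± 0.6 (71.7 on its median probe). Gata3, best known from T cells, ranked at 83.1 ± 3.2, and Pax5, the B cell factor, at 82.5 ± 5.2. Spi1 (PU.1), the myeloid and B lymphoid factor, had -0.97, 1.86 and 1.57, where sham 1 lay far below shams 2 and 3. The only Spi1 probe failed the screen. Cebpa, the factor of granulocyte commitment, had -0.55, -1.34 and -1.83, a percentile of 54.6 ± 6.6, and Gata1, of red cells and platelets, -0.11, 0.39 and 0.14 (73.4 ± 4.2).

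Transcription factor families differed in their medians. Their passing counts are to be read beside the 77.1% of all genes with a symbol. The 7 STAT genes, which carry cytokine signals to the nucleus, were all well above background on all 3 arrays. Stat5a ranked at 95.2 ± 2.7 and Stat3 at 94.9 ± 2.4, while Stat6, of interleukin-4 signalling, ranked at 53.2 ± 27.7 with sham 1 far below the others. The median of the 9 interferon regulatory factors was 80.2, with sham 1 at 65.6, and Irf5 ranked at 88.3 ± 3.1 and Irf1 at 86.4 ± 4.3. Of 14 AP-1, EGR and NR4A genes, which respond early to stress and handling, 11 (78.6%) passed on all 3 arrays. Their median was 88.3, and 80.5 with the screen. Fos ranked at 94.4 ± 1.7, Nr4a2 at 92.7 ± 2.6 and Junb at 96.5 ± 2.0 (59.8 ± 29.4 on its screened probe).

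The 26 ETS genes had a median of 69.1, and 24 of them passed. Elk1 stood first at 99.7 ± 0.1, on a probe that failed the screen, and its screened probe gave 70.6 ± 20.6. Erf, an ETS repressor, followed at 92.5 ± 2.1, and Elf3 and Spib, of epithelium and of B and dendritic cells, were not well above background on any array. The 17 KLF genes had a median of 52.6. Klf10 led at 93.6 ± 1.5, and Klf14 and Klf15 were not well above background. Of 19 SOX genes, with a median of 35.8, Sox4, a factor of lymphoid and stem cells, ranked at 95.4 ± 1.1, whereas Sox5, first at 99.9 ± 0.0, ranked at 20.0 ± 6.6 on its screened probe. Sox2, of pluripotent cells, was not well above background, at 2.3 ± 0.9. Klf2 and Cebpd ranked at 31.5 ± 11.3 and 22.3 ± 18.5. The GATA family shows the same limit, since Gata5, first at 99.3 ± 0.1, had no screened probe, and the screened probe of Gata4 ranked at 11.5 ± 1.1.

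The HOX clusters were uneven. In the HOXA cluster 9 of 11 genes were well above background on all 3 arrays, in HOXB 5 of 10, in HOXC 6 of 9 and in HOXD 5 of 9, beside 77.1% of all genes with a symbol. Hoxa9, the HOX gene best known from stem cells and leukaemia, was the highest, with 1.11, 2.6 and 2.8 (90.7 ± 5.2). Hoxa3 ranked at 84.5 ± 3.5, Hoxb3 at 81.0 ± 13.0 and Hoxc4 at 77.3 ± 10.6. Hoxb4, used to expand stem cells in culture, ranked at 55.3 ± 19.4, with no probe that passed the screen. Hoxb5, a marker of long-term stem cells, ranked at 46.7 ± 32.7, with sham 1 not well above background. Median percentiles on shams 1, 2 and 3 were 32.6, 55.4 and 58.3 for HOXA and 21.3, 52.0 and 58.3 for HOXB. They were 31.7, 33.5 and 36.4 for HOXC and 32.3, 29.3 and 26.8 for HOXD. Sham 1 was the lowest in 9 of 11 HOXA and 8 of 10 HOXB genes, and in 2 of 9 HOXC and 2 of 9 HOXD genes. Genes not well above background on any array were Hoxa11 in HOXA, Hoxb1, Hoxb7 and Hoxb13 in HOXB, Hoxc8 in HOXC and Hoxd1, Hoxd11 and Hoxd12 in HOXD.

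**Figure D4:**
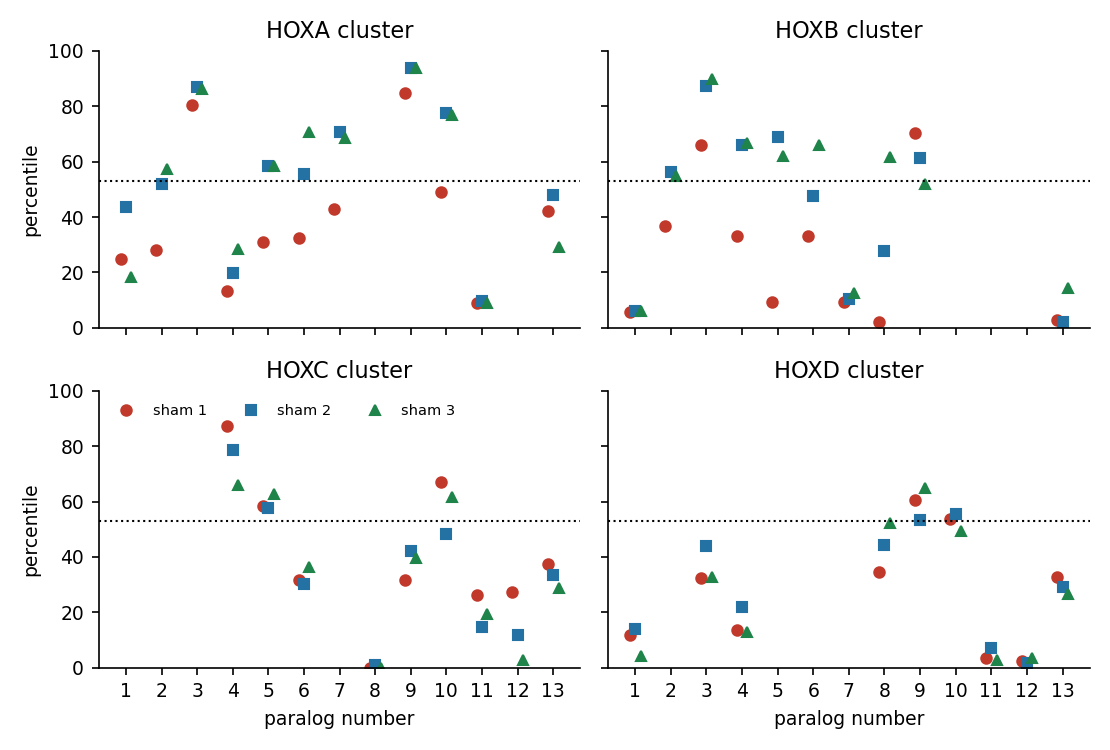
Percentile of each HOX gene (y axis) by paralog number (x axis) in the 4 clusters, with 1 symbol per sham mouse. The dotted line marks 52.9, the median of all genes with a symbol. Hoxa9, Hoxa3 and Hoxb3 lie above the line in every mouse, and HOXD genes lie mostly below it.

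Cytokine receptors of blood cells were widely detected. Of 35 measured, 33 were well above background on all 3 arrays (94.3% against 77.1% of all genes with a symbol). Their median percentile was 75.2, and 16 lay above the off-tissue mark (45.7% against 22.0%). With the screen the median was 62.9, and 27 of the 32 genes left passed (84.4% against 74.8%). Ifnar1 led at 99.9 ± 0.0. Il2rg, the common gamma chain, ranked at 98.5 ± 0.4 on a probe that failed the screen. Csf1r, the receptor of macrophage colony-stimulating factor, ranked at 96.9 ± 0.7 (76.6 on its median probe), and Il11ra1, of interleukin-11, at 96.0 ± 1.2. The partner chain Ifnar2 ranked at 64.3 ± 24.6, with sham 1 far lower, and Il6st, the gp130 chain, at 52.1 ± 12.2. Il1r1, the interleukin-1 receptor, was not well above background on any array.

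Receptors of growth factors and development were less bright. Of 42, 36 passed on all 3 arrays (85.7% against 77.1% of all genes with a symbol), and the median was 66.4. The 10 above the off-tissue mark are 23.8%, near the 22.0% of all genes with a symbol. Without sham 1, 16 of the 42 lay above the mark of 72.8, beside 7391 of the 24891 genes with a symbol. Bmpr2, the type II receptor of bone morphogenetic proteins, ranked at 99.2 ± 0.1 (91.7 ± 1.5 on its screened probe). The WNT co-receptors Lrp6 and Lrp5 ranked at 87.9 ± 10.1 and 87.9 ± 4.4, and Notch2 at 87.6 ± 2.3. Tie1, the orphan partner of TIE2, had -0.81, 3.0 and 3.39 and lay near the top on shams 2 and 3 but not on sham 1. Ret was not well above background on any array.

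Chemokine and egress receptors were the dimmest receptor group, with a median of 38.6. Of 30, 19 were well above background on all 3 arrays (63.3% against 77.1% of all genes with a symbol). Above the off-tissue mark were 2 of them (6.7% against 22.0%). Cxcr4, which holds stem cells in the marrow through CXCL12, was the exception. Its levels were 1.14, 3.51 and 3.2, and its second probe gave -0.11, 2.45 and 2.39, so that sham 1 was lowest by both probes. Its percentile was 92.2 ± 6.3. Cmklr1, the chemerin receptor, ranked at 97.0 ± 0.8 on a probe that failed the screen. S1pr1, the main egress receptor for sphingosine-1-phosphate, ranked at 52.2 ± 7.4. Ccr1, Ccr4 and Cxcr5 were not well above background on any array.

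Integrins were detected broadly and at moderate brightness. Of 26, 23 passed on all 3 arrays (88.5% against 77.1% of all genes with a symbol). The median was 51.0 beside 52.9 for all genes with a symbol. The order turned with the screen (54.7 against 53.0) and without sham 1 (53.5 against 53.3). Itga6, part of the laminin receptor, ranked at 92.6 ± 2.3 (87.2 ± 3.3 on its screened probe). Itgb2, the common chain of leukocyte integrins, ranked at 85.9 ± 2.6, and Itgb3, of the platelet integrin, at 82.0 ± 3.1. Itgb1 and Itga4, which form the VLA-4 receptor for VCAM1, ranked at 72.9 ± 21.4 and 62.1 ± 13.4 (53.1 ± 15.3 on the screened Itga4 probe), both lowest on sham 1. Among 24 other adhesion genes the median was 68.5, and it was 50.8 on sham 1 against 69.6 and 72.6 on shams 2 and 3. Mcam, an adhesion molecule of vessels, headed them at 99.5 ± 0.0, but the screen left no probe for it. Cd44, the hyaluronan receptor, ranked at 87.7 ± 8.0, Selplg, which encodes the selectin ligand PSGL-1, at 87.5 ± 9.8, and Spn, the sialomucin CD43, at 93.6 ± 1.1. Cd37, a leukocyte tetraspanin, ranked at 89.4 ± 2.2 on a probe that passed the screen. Cdh5, the cadherin of endothelium, and Sele, its activated selectin, were not well above background on any array.

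The 38 nuclear hormone receptors had a median percentile of 55.3. Of them 30 were well above background on all 3 arrays (78.9%, near the 77.1% of all genes with a symbol). Thra, a thyroid hormone receptor, ranked at 93.3 ± 1.9, and Nr3c1, the glucocorticoid receptor, at 85.1 ± 5.3. Esr2 was first at 99.3 ± 0.2, with no probe that passed the screen. Nr2f2, a factor of veins and mesenchyme, was not well above background.

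Genes of both resting and dividing cells were detected. Of 19 inhibitors of the cell cycle and quiescence genes, 18 passed on all 3 arrays (94.7% against 77.1% of all genes with a symbol). Their median percentile was 69.9, and 7 lay above the off-tissue mark (36.8% against 22.0%). Txnip, an inhibitor of thioredoxin and glucose uptake, had 2.29, 5.11 and 5.04 (96.6 ± 3.6). Cdkn1b, which encodes p27, ranked at 92.6 ± 0.4 with little difference between mice, but at 52.7 on its median probe. Ndn, which encodes the growth suppressor necdin, ranked at 92.2 ± 2.2, and Cdkn1c, which encodes p57, at 83.2 ± 7.8. Of 22 cell cycle genes, 20 passed (90.9%), with a median of 68.2, and 8 lay above the mark (36.4%). The replication licensing genes Mcm3, Mcm6 and Mcm4 ranked at 95.5 ± 0.2, 94.5 ± 0.5 and 92.1 ± 0.9. Mki67, the proliferation marker Ki-67, had 0.48, -0.05 and 0.27 (75.3 ± 2.9, below the mark of 77.2). Cdk1, the mitotic kinase, ranked at 21.2 ± 14.9 and was not well above background on sham 1.

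Chromatin regulators were broadly detected. Of 25, 24 passed on all 3 arrays (96.0% against 77.1% of all genes with a symbol). The median was 78.9, and 14 lay above the off-tissue mark (56.0% against 22.0%). Without sham 1, 20 did. Setd2 and Kmt2a, which methylate histone H3, ranked at 93.9 ± 3.1 and 93.5 ± 5.7, Tet1 at 93.2 ± 0.9, and Dnmt3a, the DNA methyltransferase often mutated in clonal haematopoiesis, at 89.3 ± 2.2. Tet3, first at 94.8 ± 0.8, ranked at 70.3 ± 16.0 on its screened probe. In 23 of the 25, sham 1 was the lowest mouse.

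Reference genes gave the scale of an abundant transcript. The 16 had a median of 95.7, with Gapdh at 98.7 ± 0.4, Eef1a1 at 98.7 ± 0.6 and Actb at 98.4 ± 0.7. Tbp, a general transcription factor, ranked at 48.9 ± 20.6, and Tfrc, the transferrin receptor, at 18.8 ± 7.3, well above background on only 1 array. In 15 of the 16, sham 1 was the lowest.

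Genes of other blood and marrow cells were examined as a check of the sort. In RNA of a whole sorted population, fewer cells of a type and less RNA per cell cannot be told apart. Megakaryocyte and platelet genes were the brightest of these lists, with a median of 68.2 over 17 genes, 13 of them well above background on all 3 arrays. That share of 76.5% is near the 77.1% of all genes with a symbol, beside which the passing counts of the lists that follow are also to be read. Treml1, a platelet receptor, ranked at 86.4 ± 4.6, Vwf, von Willebrand factor, at 85.3 ± 11.9 and Pf4, platelet factor 4, at 71.5 ± 17.5. Gp1ba, P2ry12 and Ppbp, genes of mature platelets, were not well above background on any array. Erythroid genes had a median of 52.6 over 17, with 13 passing. Car2, a carbonic anhydrase, ranked at 85.5 ± 11.5 and Hba-a1, an alpha globin gene, at 65.0 ± 13.9, while Hbb-b1 was not well above background. Globin genes have near-identical copies, and their signals may not be separate.

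Primary granule genes of the promyelocyte had a median of 44.6 over 5 genes, with 4 passing. Mpo, myeloperoxidase, had -1.27, -0.46 and -1.03, and Elane, neutrophil elastase, ranked at 35.0 ± 5.7. Mature neutrophil genes had a median of 37.2 over 14, with 10 passing, and S100a8, an abundant neutrophil transcript, had -6.43, -2.03 and -6.68 and was well above background on sham 2 only. S100a9, its partner, had -5.99, 1.52 and -4.52, also highest on sham 2, from a probe that failed the screen. Macrophage and monocyte genes had a median of 48.9 over 17, with 14 passing. Lyz2 ranked at 90.9 ± 2.7, while Adgre1, which encodes F4/80, ranked at 31.5 ± 8.3, and Mrc1 was not well above background. B lymphoid genes had a median of 39.2 over 15, with 12 passing and Rag1 not well above background. Of the 15, 4 lay above the off-tissue mark (26.7% against 22.0% of all genes with a symbol). Cd22 ranked at 99.3 (58.6 on its screened probe) and Cd79b at 88.7, with no screened probe left for Cd79b. T and NK cell genes had a median of 53.0 over 21, with 17 passing and Cd3g and Gzmb not well above background. Above the mark were 6 of the 21 (28.6%), and Cd8b1 ranked at 94.2, with no probe that passed the screen. With the screen, 2 of 11 B lymphoid genes (18.2%) and 4 of 19 T and NK cell genes (21.1%) lay above the screened mark, against 19.3%.

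Mast cell and basophil genes were the dimmest, with a median of 24.9 over 12, 6 passing, and Cpa3, Gzmb, Mcpt2 and Prss34 not well above background. Endothelial genes had a median of 44.1 over 17, with 11 passing, and Cdh5, Lyve1 and Sele not well above background. Egfl7, Vwf, Esam and Tie1 headed them, and stem cells are known to express these too. Stromal and osteoblast genes had a median of 55.3 over 23, with 18 passing, and it was 62.5 on sham 1 against 54.2 and 47.0 on shams 2 and 3. Col1a1, type I collagen, had 3.91, 1.1 and -1.27, highest on sham 1 and lowest on sham 3, and Dcn, decorin, had 0.24, -5.25 and -5.36 and was well above background on sham 1 only. Cxcl12, the ligand of CXCR4 made by niche cells, ranked at 55.3 ± 6.1, Lum and Nes were not well above background, and the part of other cells in these values was not tested.

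Lists of other tissues set a floor under these values. Hepatic and pancreatic genes had a median of 52.1 over 18 (61.1 on sham 1), with 14 passing on all 3 arrays. Neural genes had 47.3 over 20 with 16 passing, muscle and epithelial genes 37.1 over 24 with 18 passing, and germline genes 28.3 over 16 with 10 passing. Alb, serum albumin, had -2.59, -7.01 and -7.21 and was well above background on sham 1 only, while Cela1, a pancreatic elastase, ranked at 82.2 ± 2.7. Snap25, a synaptic protein, ranked at 99.8 ± 0.1, but its screened probe ranked at 33.8 ± 12.3. A percentile near the middle of the array is thus reached by many genes of other tissues. The Y-linked genes Eif2s3y, Uty and Kdm5d were well above background on all 3 arrays, and Ddx3y, also Y-linked, was not on any. Xist, the RNA of the inactive X chromosome, had -1.88, -3.3 and -2.47, well above background on all 3 arrays although the mice are male.

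**Figure D5:**
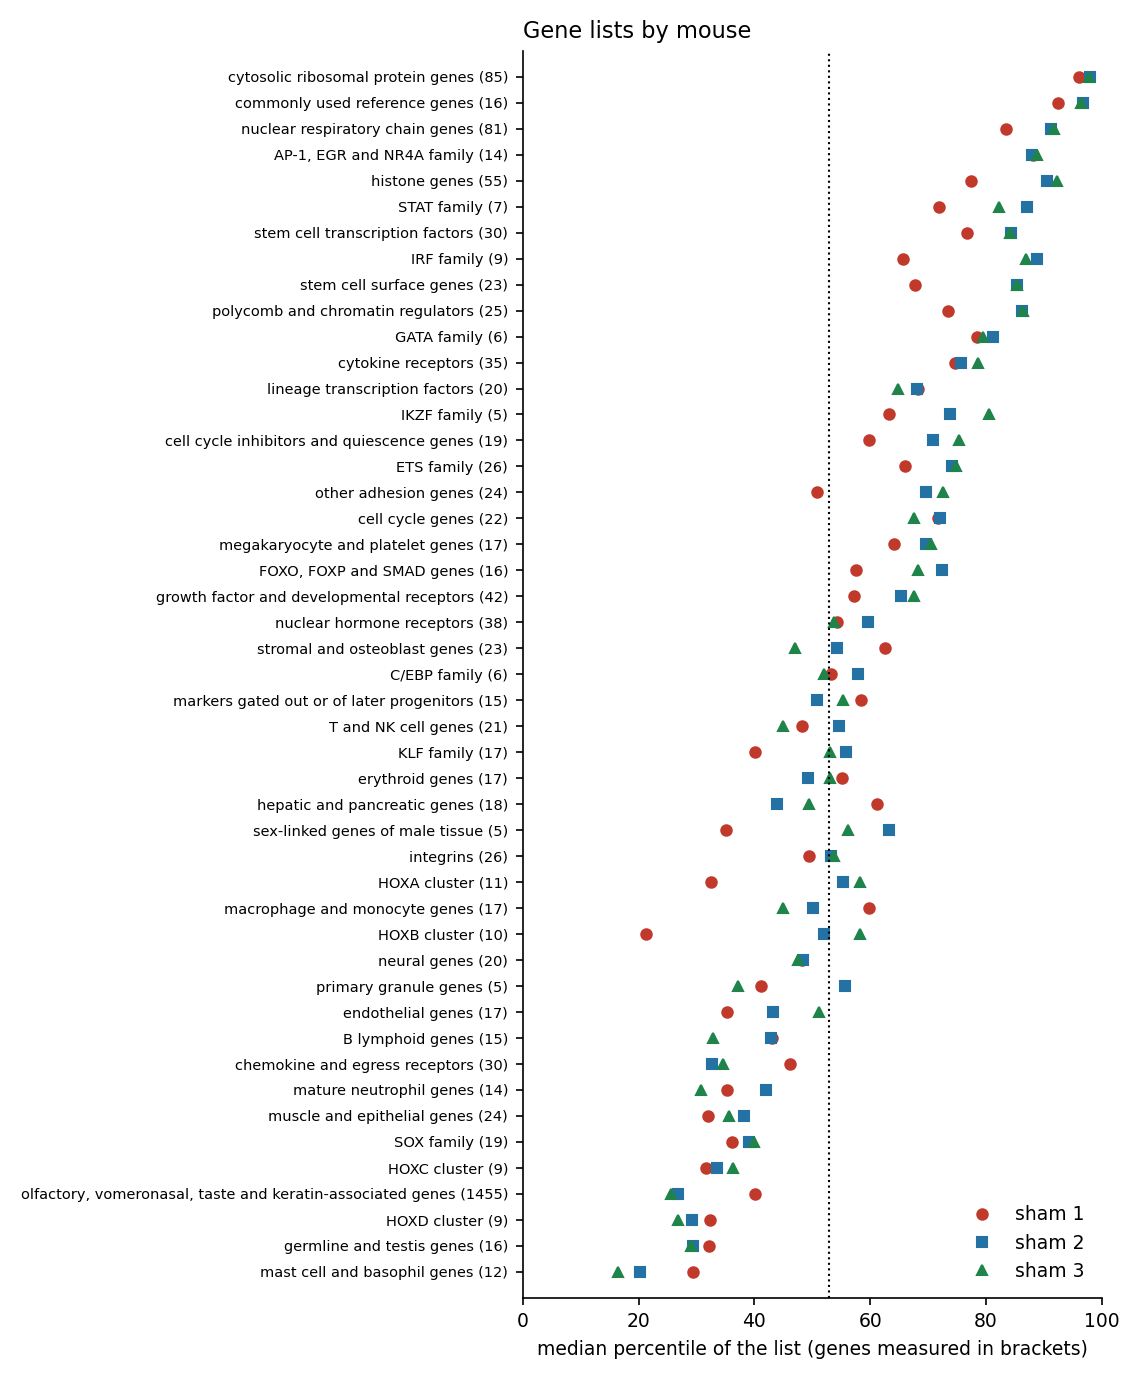
Median percentile of each gene list with at least 5 genes (x axis), with 1 symbol per sham mouse and the number of genes measured in brackets. The dotted line marks 52.9, the median of all genes with a symbol. Ribosomal protein genes lie at the top, stem cell surface genes and transcription factors lie well right of the line, and mast cell, germline and sensory receptor genes lie left of it.

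By kind of gene, the 20387 protein-coding genes passed on all 3 arrays in 80.5% of cases, with a median percentile of 56.5. The 4003 long non-coding RNA genes passed in 60.4%, with a median of 33.0. The 4062 intergenic lincRNA intervals that the array tiles, which carry no symbol, passed in 79.4% with a median of 50.7.

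The genes on which the mice differed most were led by sham 1. By range of percentile, among genes well above background in all 3 mice, 6 of the 8 most variable were low on sham 1 alone. Pik3ip1, an inhibitor of PI3 kinase, had -3.51, 1.82 and 2.34, Padi4, a histone-modifying enzyme of neutrophils, -3.71, 1.69 and 1.85, and Map2k7, a kinase of JNK, -3.94, 1.18 and 0.91. Sri, Lonp1 and Cpsf1 showed the same order. Olfr342, an olfactory receptor gene, had 1.99, -4.48 and -3.69, and Gm16497 1.26, -4.28 and -0.79, both highest on sham 1. Over 23393 screened genes with a symbol, 1529 were more than 2 log2 units lower on sham 1 than on both other mice. These were well above background on both other mice. Another 1325 were more than 2 units higher on sham 1. The median difference over screened genes was 0.54 from sham 2 and 0.5 from sham 3, with sham 1 higher. The counts in the 2 directions therefore cannot be compared directly.

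Between shams 2 and 3, which shared a slide, the median absolute difference was 0.41 log2 units over the screened genes with a symbol. Sestd1 (-1.26, -3.29 and 0.34), Echdc3 (-0.45, -4.35 and -0.43) and Ang (-0.81, -4.88 and -1.29) were among the 8 genes that were furthest above sham 2 on sham 3. Nr2c1 (-0.29, -1.04 and -4.47), Col27a1 (-2.43, -0.68 and -4.43) and Irgc1 (-3.08, -1.03 and -4.45) were among the 8 furthest the other way. Of these 16 genes, 2 were olfactory receptor genes, Olfr286 and Olfr738.

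Promoters of bright and dim genes differed in their letters. RefSeq promoters (GRCm38.p6, 250 bases before to 50 after the start) were matched by symbol for 410 of the 500 brightest screened protein-coding genes and for 1080 of the 1355 protein-coding genes not well above background on any array. Their median GC content was 59.5% and 49.0%, and the median number of CpG dinucleotides 20.0 and 4.0. GGGCGG, the GC box, was found on either strand in 60.9% of promoters of the bright set and 27.9% of the dim set, against 48.3% of the 20000 promoters of all protein-coding genes measured and 35.7% of all 32851 promoters in the table. CCGGAAG, the core bound by ETS factors such as GABP, was found in 17.2% and 3.8%, against 12.0% and 8.9% in those same 2 backgrounds. TATAAA, the TATA box, was found in 13.1% and 23.9%, against 12.2% and 13.6%, so that the bright set lay between the backgrounds. CCAAT was found in 40.4% and 39.8%, against 38.0% and 37.4%. The probes of the dim set had a median GC content of 35.0% and those of the bright set 45.0%, and their part in this difference was not tested.

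The 100 bases before the start are shown for a bright ribosomal gene, a stem cell factor and a globin gene, with matches to the searched motifs in capitals. They were picked as examples that hold motifs. The same stretch of Rpl28 and of the upstream start of Gata2 held no match, and that of Alb held CCAAT boxes but no TATA box. Rpl41 (chr10:128549169-128549268, minus strand) holds the ETS core and a GC box, Gata2 at its downstream start (chr6:88198564-88198663, plus strand) holds a pair of GC boxes between CCAAT boxes, and Hbb-bt (chr7:103813924-103814023, minus strand) holds CCAAT boxes and a TATA box.
Rpl41: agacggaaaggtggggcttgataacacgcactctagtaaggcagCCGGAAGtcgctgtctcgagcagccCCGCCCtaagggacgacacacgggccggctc
Gata2: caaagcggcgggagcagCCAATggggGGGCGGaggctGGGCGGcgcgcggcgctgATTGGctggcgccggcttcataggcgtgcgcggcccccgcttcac
Hbb-bt: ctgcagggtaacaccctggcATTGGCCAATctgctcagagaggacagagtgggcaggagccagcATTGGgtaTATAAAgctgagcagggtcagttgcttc

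Rpl41 had levels of 4.66, 5.16 and 5.07, and Gata2 those given above. Hbb-bt, a beta globin gene, had -6.19, -1.78 and -1.27, well above background on shams 2 and 3 only, and so lay outside the dim set. For the other motifs searched, the shares are given for the bright and then the dim set. AGATAA, which erythroid zinc finger factors bind, was found in 7.3% and 14.3%, TGTGGT, a RUNX site, in 14.6% and 16.0%, CACGTG, an E-box, in 10.3% and 5.9%, TGACTCA, an AP-1 site, in 3.9% and 6.4%, and TGACGTCA, a cyclic AMP response element, in 4.1% and 1.1%. In promoters of all protein-coding genes measured these shares were 9.5%, 14.4%, 8.1%, 4.6% and 2.3%, and in all promoters 11.2%, 16.8%, 7.2%, 5.2% and 1.8%. For TGTGGT both sets lay above the former and below the latter. A match is only a run of letters and shows no binding.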

How the data were processed

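Total RNA of sorted marrow cells was hybridised to 1-colour Agilent arrays with probes of 60 bases, labelled with Cy5. The deposited scanner files of the 3 sham arrays hold intensity values that the authors obtained with Agilent Feature Extraction 11.5.1.1, per the submitters' processing notes; the processed signal is background-corrected by that software, per the file headers. Each array has 59305 spots that are not controls, and outlier spots (60 to 95 an array) were left out. The processed signal was taken as log2, minus log2 of the array's 75th percentile, and spots of a probe were averaged (Python 3.11.15, pandas 2.3.3). A gene took its brightest probe. Probe genes are those of the array design, updated through RefSeq: 33890 probes by accession, 9468 by symbol and 488 by synonym, with 12759 left unmatched. Coordinates come from the array design (mm9). Files give slides by barcode, and slide was not modelled.

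Named genes followed a rule: the 25 brightest genes with a symbol, up to 4 of the highest detected and 2 undetected members of each of 45 lists, 20 fixed genes, the 8 with the largest percentile range, and the 8 with the largest difference between shams 2 and 3 in each direction. Some genes that it selects are left out of the text. The members, lists and rule were chosen with earlier results of these data known. Alternatives were normexp with an offset of 50 and quantile normalization (limma 3.58.1, R 4.3.3), quantile normalization alone, the deposited intensity table of the authors, other detection flags, the median probe, leaving out each mouse and the sequence screen. The 9 columns of treated mice in it were not used.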

Additional observations from a re-analysis of the deposited data

How the results depend on the processing

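The count of genes well above background on all 3 arrays was 27723. It kept within 1.5 times of that under every alternative run, from 24076 with the median probe of each gene to 30959 where 2 of the 3 arrays sufficed, and from 28640 to 29040 with 1 mouse left out. The count of genes not well above background on any array was 3759, and 4170 to 4815 with 1 mouse left out. It was 2283 with the scanner's looser flag for a positive and significant signal. Of the 100 brightest genes, 89 to 93 stayed with 1 mouse left out, 81 under normexp with quantile normalization, and 100 with the authors' deposited values, whose ranks match each scanner file with a Spearman correlation of at least 0.999998. Only 42 stayed with the median probe and 10 under the sequence screen. Lists of the 100 brightest taken from each array alone had 59 in common over all 3 arrays, and 44 after the screen. After the screen shams 2 and 3 shared 82, while sham 1 shared 47 with sham 2 and 56 with sham 3. Among 284 named genes, percentiles moved by a median of 7.5 (at most 91.0) with the median probe, by 3.2 (at most 89.8) under the screen (257 genes), by 2.1 (at most 27.5) when ranked among probes of like GC content, and by 1.2 (at most 23.9) without sham 1. List medians moved by a median of 7.2 with the median probe and 2.4 without sham 1. No sham replicate was paired with another sample, since there is no contrast. Brightness over background limits every statement on dim genes.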
